A study of Mus musculus with 2 samples.

Results

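The nuclear genes of oxidative phosphorylation (OXPHOS) were followed in CD45+ cells sorted from the perigonadal visceral adipose tissue (VAT) of obese mice and of obese mice placed on caloric restriction (CR). They were taken by symbol: every gene of the deposited gene list whose name begins with Ndufa, Ndufb, Ndufc, Ndufs, Ndufv, Sdh, Uqcr, Cox4, Cox5, Cox6, Cox7, Cox8 or Atp5 was kept, apart from the Ndufaf assembly factors. This gave 89 of the 27998 genes, of which 38 belong to complex I, 4 to complex II, 8 to complex III, 18 to complex IV and 15 to complex V. The remaining 6 (Sdhaf1 to Sdhaf4, Atp5s and Atp5sl) share a prefix but are not subunits. Beside them stand the 13 protein genes of mitochondrial DNA, whose symbols begin with mt-.

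Complexes I to IV carry electrons from NADH and succinate to oxygen and, except for complex II, pump protons across the inner mitochondrial membrane, and complex V, the ATP synthase, uses the proton gradient to make ATP. Complexes I, III, IV and V are built from subunits of both genomes, so nuclear and mitochondrial transcripts contribute to the same machines, whereas complex II is encoded by nuclear genes alone. In macrophages, oxidative metabolism is commonly associated with alternatively activated and lipid-handling states, and complex II also takes part in the tricarboxylic acid (TCA) cycle.

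Both groups were male C57BL/6J mice bought at 6 weeks of age and acclimated for 2 weeks. For 24 weeks they ate a diet with 60% of calories from fat and 0.3% cholesterol and received a weekly injection of 5 mg/kg of an antisense oligonucleotide against the LDL receptor, a treatment that the obese controls thus carried too. The obese group was then harvested, and the CR group went on for 2 weeks at 70% of its free intake of the same diet. The label of the CR sample reads life-long restriction, whereas the methods of the study describe this short restriction after obesity. There was 1 library per group, and the number of mice behind each was not found in the sources used here, so no difference between obese and CR could be tested, and a difference between groups and a difference between 2 libraries cannot be told apart. Intervals given are exact 95% intervals that cover counting error only.

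The obese library held 5795 barcodes and 42948242 unique molecular identifiers (UMIs), and the CR library held 3562 barcodes and 19696476 UMIs. After cells with outlying mitochondrial shares (over 4.85% in obese and 5.58% in CR) or UMI numbers were removed, 5263 and 2987 cells remained, with medians of 6738 and 4802 UMIs. Cells were assigned to 20 gates by lists of marker genes that include no OXPHOS gene, and each gate name stands for cells that carry such markers (macrophage-like, T cell-like and so on). Of the kept cells, 4624 obese and 2519 CR cells fell in 1 gate, and 28 barcode sequences occurred in both libraries. The macrophage gate left after the specific macrophage lists, called other macrophage, was led by Saa3 and had 0 of its own markers among its 10 leading genes in obese and 1 in CR. The CR lipid-associated gate had Saa3, Retnla and Arg1 among its leading genes beside Spp1, Trem2 and Atp6v0d2. Cd300e, listed as a marker of patrolling monocytes, was among the 10 leading genes of the Fcgr4-high macrophage gate in both libraries. No separate gate for patrolling monocytes was set, and their part in the Fcgr4-high gate was not tested. Although cells were sorted on CD45, its gene Ptprc gave a UMI in only 15.3% and 12.8% of the cells of the fibroblast gate.

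Promoter sequence is shown for some of the members, since nuclear OXPHOS genes lie on many chromosomes (chromosome 7 held the most, 11 members) and are known to share regulators rather than position. RefSeq promoters (GRCm38.p6, 250 bases before to 50 after the start site) were matched for 74 of the 89 members. Each was searched on both strands for 4 motifs named after factors known for mitochondrial genes: GCGCATGC (NRF1), CCGGAAGT (the ETS family, which includes GABPA), AAGATGGCG (YY1) and TCAAGGTCA (ERR alpha). At least 1 motif was present in 24 members (32.4%), against 8.93% of the 27025 genes of the table. The NRF1 motif was found in 10 members (13.5%, against 3.05% of all genes) and the YY1 motif in 8 (10.8%, against 1.64%). The ETS motif was found in 5 (6.76%, against 4.31%) and the ERR alpha motif in 2 (2.70%, against 0.466%). The first 5 sequences are those of the motif-holding subunit of highest level in each complex. Atp5h and Atp5g2 follow as motif-holding members that were lower in CR in the 10 compared gates other than erythroid. Atp5e and Ndufb11 were also lower in those 10 gates, but their promoters held none of the 4 motifs and are not printed. A link between motifs and the levels in CR was not tested. Capitals mark the NRF1 motif in Ndufa6, Sdhb, Atp5l and Atp5g2 and the ETS motif in Uqcrh, Cox8a and Atp5h, in most cases read on the opposite strand.
Ndufa6 (chr15:82354242-82354541, minus strand): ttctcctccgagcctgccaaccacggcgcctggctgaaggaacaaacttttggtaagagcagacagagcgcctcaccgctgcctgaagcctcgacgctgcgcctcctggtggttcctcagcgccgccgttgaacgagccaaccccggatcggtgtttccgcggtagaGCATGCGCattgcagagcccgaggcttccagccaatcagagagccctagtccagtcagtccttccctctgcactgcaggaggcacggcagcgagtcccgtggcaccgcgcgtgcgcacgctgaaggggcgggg
Sdhb (chr4:140961021-140961320, plus strand): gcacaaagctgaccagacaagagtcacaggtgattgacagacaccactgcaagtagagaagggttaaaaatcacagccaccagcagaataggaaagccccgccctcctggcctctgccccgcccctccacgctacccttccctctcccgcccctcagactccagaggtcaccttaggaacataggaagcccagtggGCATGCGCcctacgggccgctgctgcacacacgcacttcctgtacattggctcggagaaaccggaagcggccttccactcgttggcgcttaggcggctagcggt
Uqcrh (chr4:116075021-116075320, minus strand): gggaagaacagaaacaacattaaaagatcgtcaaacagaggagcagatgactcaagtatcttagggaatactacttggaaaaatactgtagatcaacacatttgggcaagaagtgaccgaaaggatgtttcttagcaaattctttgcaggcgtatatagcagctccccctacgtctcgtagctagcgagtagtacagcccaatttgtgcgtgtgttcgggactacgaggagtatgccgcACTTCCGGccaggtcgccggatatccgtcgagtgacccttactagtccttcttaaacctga
Cox8a (chr19:7217567-7217866, minus strand): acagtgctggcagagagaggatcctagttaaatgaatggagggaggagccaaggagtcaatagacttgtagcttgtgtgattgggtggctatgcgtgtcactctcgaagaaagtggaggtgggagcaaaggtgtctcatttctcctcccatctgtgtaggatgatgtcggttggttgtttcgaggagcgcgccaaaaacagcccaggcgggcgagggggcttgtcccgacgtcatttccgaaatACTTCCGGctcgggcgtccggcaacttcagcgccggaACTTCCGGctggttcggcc
Atp5l (chr9:44920693-44920992, minus strand): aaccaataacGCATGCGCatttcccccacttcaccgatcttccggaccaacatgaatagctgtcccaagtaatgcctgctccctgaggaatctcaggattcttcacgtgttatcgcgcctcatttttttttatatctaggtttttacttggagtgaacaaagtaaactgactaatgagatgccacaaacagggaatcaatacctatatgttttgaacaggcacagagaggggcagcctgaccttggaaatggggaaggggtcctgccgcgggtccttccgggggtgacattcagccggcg
Atp5h (chr11:115419870-115420169, minus strand): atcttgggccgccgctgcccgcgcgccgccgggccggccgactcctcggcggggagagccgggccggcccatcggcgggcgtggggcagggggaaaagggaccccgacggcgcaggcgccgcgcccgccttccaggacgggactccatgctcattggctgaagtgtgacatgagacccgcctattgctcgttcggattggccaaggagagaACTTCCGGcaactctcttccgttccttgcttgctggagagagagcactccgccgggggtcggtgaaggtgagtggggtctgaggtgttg
Atp5g2 (chr15:102670998-102671297, minus strand): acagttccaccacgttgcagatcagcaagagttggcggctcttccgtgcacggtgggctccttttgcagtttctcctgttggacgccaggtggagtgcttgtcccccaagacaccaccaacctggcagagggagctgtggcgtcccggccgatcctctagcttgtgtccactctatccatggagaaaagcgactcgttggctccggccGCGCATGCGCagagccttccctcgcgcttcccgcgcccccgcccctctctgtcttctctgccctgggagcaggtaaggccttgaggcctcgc
In Sdhb, Uqcrh, Cox8a, Atp5h and Atp5g2 a motif began within 54 bases before the start site, while that of Ndufa6 began 83 bases before it and that of Atp5l 240 bases before it. The printed Atp5g2 window lies inside the span of the gene given below, because RefSeq and GENCODE take different start sites. In Atp5g2, 2 overlapping matches on opposite strands form 1 palindromic site. Such a match is a run of letters and does not show that a factor binds there.

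Transcripts of the members made up 2.42% of all UMIs of kept obese cells and 2.39% in CR, and those of the mt- genes made up 2.06% and 2.09%. A level is given as UMIs scaled to a fixed total (counts per 1000000, CPM) over all UMIs of a gate, and because each UMI stands for the 3' end of 1 molecule, levels of different genes can be set side by side without a correction for length. Of the 89 members, 75 reached 50 CPM over all kept cells of at least 1 library. All 8 subunits of complex III, all 4 of complex II and all 15 of complex V did so, as did 36 of 38 in complex I and 11 of 18 in complex IV. The 7 others of complex IV are the isoforms Cox4i2, Cox6a2, Cox6b2, Cox7a1, Cox7b2, Cox8b and Cox8c, of which Cox7b2 and Cox8c had no UMI in either library.

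Levels differed more between the subunits of a complex than between the libraries. In complex IV, the regulatory subunit Cox4i1 (chr8:120668222-120674207 in mm10) had the highest level of all members, at 1171 CPM in the obese library and at 1122 CPM in CR. Cox8a followed at 746 and 705 CPM, Cox6b1 at 701 and 685 CPM, and Cox7c at 699 and 674 CPM. The highest subunit of complex V was Atp5l, subunit g of the membrane part, at 869 and 940 CPM, followed by Atp5e, the epsilon subunit, at 632 and 533 CPM. The catalytic beta subunit Atp5b stood at 583 and 597 CPM.

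Complex III was led by the hinge protein Uqcrh, at 586 CPM in the obese library and at 605 CPM in CR, and by Uqcrb at 491 and 530 CPM. In complex I the small accessory subunits were the highest, with Ndufa4 (now also counted as a complex IV subunit) at 523 and 532 CPM, Ndufa13 at 459 and 426 CPM and Ndufa2 at 413 and 398 CPM. The subunits that carry the redox centres were lower and differed among themselves. Ndufs7, Ndufs8 and Ndufv2, which carry iron-sulfur clusters, stood at 171, 160 and 170 CPM in obese and 166, 165 and 173 CPM in CR. Ndufv1, which binds NADH, stood at 62.4 CPM in the median obese gate and Ndufs1, the largest of the iron-sulfur subunits, at 22.3 CPM. Complex II had the lowest levels of the 5, with the iron-sulfur subunit Sdhb at 244 and 252 CPM, the flavoprotein Sdha at 98.5 and 131 CPM, and the membrane anchors Sdhc at 89.1 and 67.7 CPM and Sdhd at 95.8 and 88.2 CPM.

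The mt- genes were uneven as well. Mt-Atp6 of complex V stood at 5145 CPM in the obese library and at 5522 CPM in CR, mt-Co3 at 4281 and 4009 CPM and mt-Co1 at 3784 and 4007 CPM, the last 2 being core subunits of complex IV. Complex I genes reached from mt-Nd1, with 1933 CPM in the median obese gate, down to mt-Nd6, with 5.15 CPM. The counts of mt-Nd4l and mt-Atp8 are uncertain, because mt-Nd4l overlaps mt-Nd4 and mt-Atp8 overlaps mt-Atp6, and mt-Nd6 is the one of the 13 encoded on the other strand.

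The complexes took similar but not fixed parts of the member UMIs across the gates of at least 50 cells, erythroid left out. Complex I took from 25.6% in obese migratory dendritic cells to 36.5% in CR fibroblasts, complex IV from 24.5% in obese fibroblasts to 31.2% in obese migratory dendritic cells, and complex V from 24.9% in CR endothelial cells to 29.6% in obese natural killer cells. Complex III stayed between 10.0% and 11.8%, and complex II took at most 2.81%, in CR cycling macrophages. In the obese library, the nuclear share of all UMIs ran from 2.06% in the B cell gate to 2.84% in the cycling macrophage gate over the 13 gates of at least 50 cells, erythroid left out. In CR it ran from 1.89% to 2.90% over 11 gates, with the same 2 gates at the ends.

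**Figure D1:**
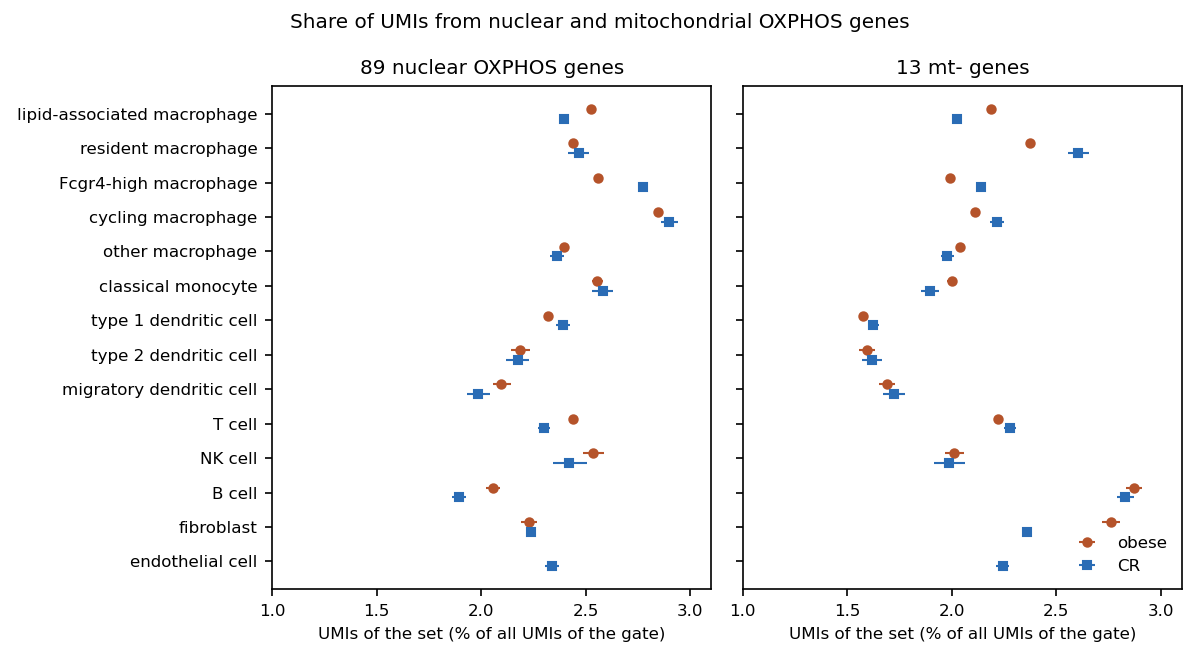
Share of all UMIs of a gate that came from the 89 nuclear OXPHOS genes (left) and the 13 mt- genes (right), in percent, for gates other than erythroid with at least 50 cells in 1 library; circles are obese, squares are CR, and bars are exact 95% intervals for counting error, with points drawn for libraries of at least 30 cells. The B cell gate has the lowest nuclear share (2.06% and 1.89%) and the highest mt- share (2.87% and 2.83%).

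The cycling macrophage gate had the highest nuclear share in both libraries. Against the other gated leukocytes of the same library its log2 ratio was 0.22 [0.21, 0.23] for obese cells and 0.23 [0.21, 0.25] for CR cells, while its mt- share differed by 0.01 [-0.01, 0.02] and 0.07 [0.05, 0.10]. None of 75 measured members lay 1.5-fold higher in obese and 4 of 76 did in CR, where 10.7% and 15.4% of all measured genes did so. The median over all measured genes was itself raised in this gate, at 0.13 and 0.15, against 0.24 and 0.24 for the members. Atp5g2, which encodes a c-ring subunit of the ATP synthase, reached 665 CPM in the obese cycling gate against 465 CPM in the rest, and 584 against 367 CPM in CR. Cells of this gate held the most UMIs among the macrophage gates, with medians of 11735 and 9171. With every cell thinned to 1500 UMIs, its median cell held 42 member UMIs in obese and 45 in CR, against at most 38 and 40 in the other macrophage gates. Beyond such thinning, the part of depth in this difference was not tested.

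The B cell gate lay at the other end. Its nuclear share was lower than in the other gated leukocytes by -0.28 [-0.30, -0.26] on the log2 scale in obese and by -0.43 [-0.45, -0.40] in CR, and its mt- share was higher by 0.46 [0.44, 0.48] and 0.45 [0.43, 0.47]. It was thus the gate with the most mt- UMIs per nuclear OXPHOS UMI among those of at least 50 cells, at 1.40 in obese and 1.49 in CR, against 0.678 and 0.680 in the type 1 dendritic cell gate. In B cells, 16 of 77 measured members were at least 1.5-fold lower in obese and 27 of 76 in CR, where 30.6% and 33.3% of all measured genes were. The members' count thus lay below the background in obese and close to it in CR. Among them, Ndufb8 of complex I stood at 153 CPM against 341 CPM in the rest of the obese cells, and Uqcr11 of complex III at 201 against 362 CPM. Opposite to these, Cox7a2l, counted here with complex IV, stood at 655 CPM against 427 CPM in obese and 624 against 417 CPM in CR.

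Dendritic cell gates had low mt- shares. In the type 1 gate the mt- share was lower by -0.46 [-0.47, -0.44] in obese and -0.41 [-0.43, -0.38] in CR, and the nuclear share by -0.11 [-0.12, -0.10] and -0.07 [-0.09, -0.05]. Ndufa6 and Uqcrfs1 stood highest above the rest in that gate. Ndufa6 of complex I reached 537 CPM against 295 CPM in obese and 504 against 318 CPM in CR, and Uqcrfs1, the Rieske iron-sulfur protein of complex III, reached 306 against 181 CPM and 274 against 187 CPM. The migratory gate, measured in obese only, had 31 of 76 members at least 1.5-fold lower where 36.6% of all measured genes were, with Ndufa12 at 62.5 CPM against 180 CPM and Sdhb at 113 CPM against 256 CPM. In the same 66 cells Sdhaf1, an assembly factor of complex II, stood at 331 CPM against 35.5 CPM in the other leukocytes. Sdhaf1 was also higher in B cells, at 103 against 37.8 CPM in obese and 118 against 43.6 CPM in CR.

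Macrophage gates differed from each other in a few subunits. Cox5a, a complex IV subunit, was highest in the Fcgr4-high gate, at 701 CPM against 496 CPM in the other obese leukocytes and 910 against 487 CPM in CR, and lowest in fibroblasts, at 209 and 243 CPM. Ndufs8, an iron-sulfur subunit of complex I, was also highest there, at 219 against 162 CPM and 246 against 151 CPM. In CR, 3 of 76 members lay at least 1.5-fold above the rest in this gate where 16.1% of all genes did, and its nuclear share was higher by 0.23 [0.22, 0.24]. The resident gate had less Uqcrfs1 (130 against 198 CPM in obese, 139 against 196 CPM in CR) and less Atp5b (446 against 611 CPM, and 436 against 635 CPM), together with a higher mt- share (0.19 [0.18, 0.20] and 0.31 [0.28, 0.34]). T cells had less Uqcr11 (228 against 369 CPM in obese) and more Uqcrh (787 against 578 CPM in obese and 794 against 632 CPM in CR). The endothelial gate, measured in 173 CR cells, had 6 of 78 members at least 1.5-fold above the leukocytes and 4 below them, where 36.2% and 23.3% of all measured genes were. There Ndufa8, a complex I subunit, stood at 489 CPM against 180 CPM, and Atp5j, coupling factor 6 of the ATP synthase, at 856 CPM against 457 CPM. All these ratios within a library rest on cells prepared together.

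Nuclear and mt- shares did not move together across gates. Pearson's r was -0.11 and Spearman's rho -0.07 over the 13 obese gates, and -0.43 and -0.47 over the 11 CR gates, where the points of a library share its preparation and depth. Across single cells of a gate the correlation of the shares was also weak in most gates, at 0.00 in the obese lipid-associated gate, -0.23 in obese T cells and 0.37 in the obese resident gate.

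For the comparison of CR with obese, 11 of the 20 gates had at least 50 cells in each library. The same 2 libraries stand behind every gate, so gates that point the same way are not independent repeats. A gene counted as measured in a gate when the libraries held 20 or more UMIs of it between them and it reached 50 CPM in 1, and log2 ratios of genes were taken after 5 CPM were added to each side. Leaving out the erythroid gate, the nuclear share was higher in CR in 6 of 10 gates and lower in 4, with intervals above 0 in 3 and below 0 in 3. For the mt- share these counts were 5 and 5, with intervals above 0 in 5 and below 0 in 4. Normalisation matters at this size: scaling factors by the trimmed mean of M values (TMM) lay between -0.06 and 0.22 on the log2 scale (CR against obese), such a factor is subtracted from every ratio of its gate, and under them the nuclear share was higher in only 2 of the 10 gates.

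The Fcgr4-high macrophage gate, with 384 obese and 643 CR cells, had the largest difference upward, from 2.56% in obese to 2.77% of UMIs in CR (log2 ratio 0.12 [0.10, 0.13], and 0.03 under TMM factors). The ratio was 0.14 [0.12, 0.17] for complex I, 0.15 [0.11, 0.20] for complex III and 0.15 [0.12, 0.17] for complex IV, while complex V stood at 0.04 [0.01, 0.06]. Over all measured genes 37.1% were below 0. Of the measured members, 7 of 36 in complex I, 2 of 8 in complex III, 1 of 11 in complex IV and 8 of 15 in complex V were. The median of all members, 0.13, lay close to that of all 2757 measured genes, 0.10. Atp5l went from 913 to 1210 CPM (0.40 [0.33, 0.48]) and Cox5a from 701 to 910 CPM (0.37 [0.29, 0.46]). The mt- share moved with them, from 1.99% to 2.14%.

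In the lipid-associated macrophage gate, with 1046 obese and 175 CR cells, the nuclear share was lower in CR, at 2.52% against 2.40% (-0.08 [-0.09, -0.06]), and so was the mt- share, at 2.19% against 2.02% (-0.11 [-0.13, -0.10]). Complex IV (-0.11 [-0.13, -0.08]) and complex V (-0.10 [-0.13, -0.07]) were lower, complex I less so (-0.07 [-0.09, -0.04]), and complex III was at 0.02 [-0.03, 0.06]. In all, 58 of 75 members were below 0, where 44.0% of all measured genes were, and their median of -0.06 compares with 0.04 for all measured genes. Of the CR barcodes of this gate, 44.6% were over the mitochondrial limit, and without the filter its mt- ratio was 0.98 in favour of CR.

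T and B cells were lower in CR in complexes IV and V. They were less so in complex I, at -0.04 [-0.08, -0.01] in T cells and -0.09 [-0.15, -0.03] in B cells. In T cells the nuclear share went from 2.44% to 2.30% (-0.08 [-0.10, -0.06]), with all 11 measured members of complex IV and 13 of 15 in complex V below 0 and complex III at -0.01 [-0.08, 0.05]. In B cells it went from 2.06% to 1.89% (-0.12 [-0.15, -0.09]), with 9 of 11 and 13 of 15 below 0, respectively. Cox8a, a subunit at the rim of complex IV, was 859 CPM in obese T cells and 740 CPM in CR T cells, and 767 and 652 CPM in B cells. Over all measured genes 42.9% were below 0 in T cells and 45.9% in B cells, against 54 of 75 and 55 of 77 members. The mt- share did not go with them, at 0.04 [0.02, 0.06] in T cells and -0.02 [-0.05, 0.01] in B cells, although it was -0.10 in T cells under TMM factors. Median UMIs per cell were 3459 in obese and 2712 in CR T cells, and 3569 and 2731 in B cells, and the part of depth in these ratios was not tested.

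The other gates moved less. The nuclear ratio was 0.03 [0.01, 0.05] in cycling macrophages and 0.04 [0.02, 0.06] in type 1 dendritic cells, and both turned negative under TMM factors (-0.19 and -0.17). Resident macrophages (0.02), other macrophages (-0.02), classical monocytes (0.01) and fibroblasts (0.01) had intervals that include 0. Other settings moved these ratios further, to -0.20 in resident macrophages and -0.10 in classical monocytes under TMM factors and to -0.26 in other macrophages with 2 markers asked. In fibroblasts the mt- share was lower in CR all the same, at 2.76% against 2.36% (-0.23 [-0.25, -0.20]). In the erythroid gate, the genes of its list (haemoglobin genes and Alas2) made up 72.5% of the UMIs in obese and 83.6% in CR. The member share there was therefore taken over the UMIs other than haemoglobin, at 2.53% and 2.13%.

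**Figure D2:**
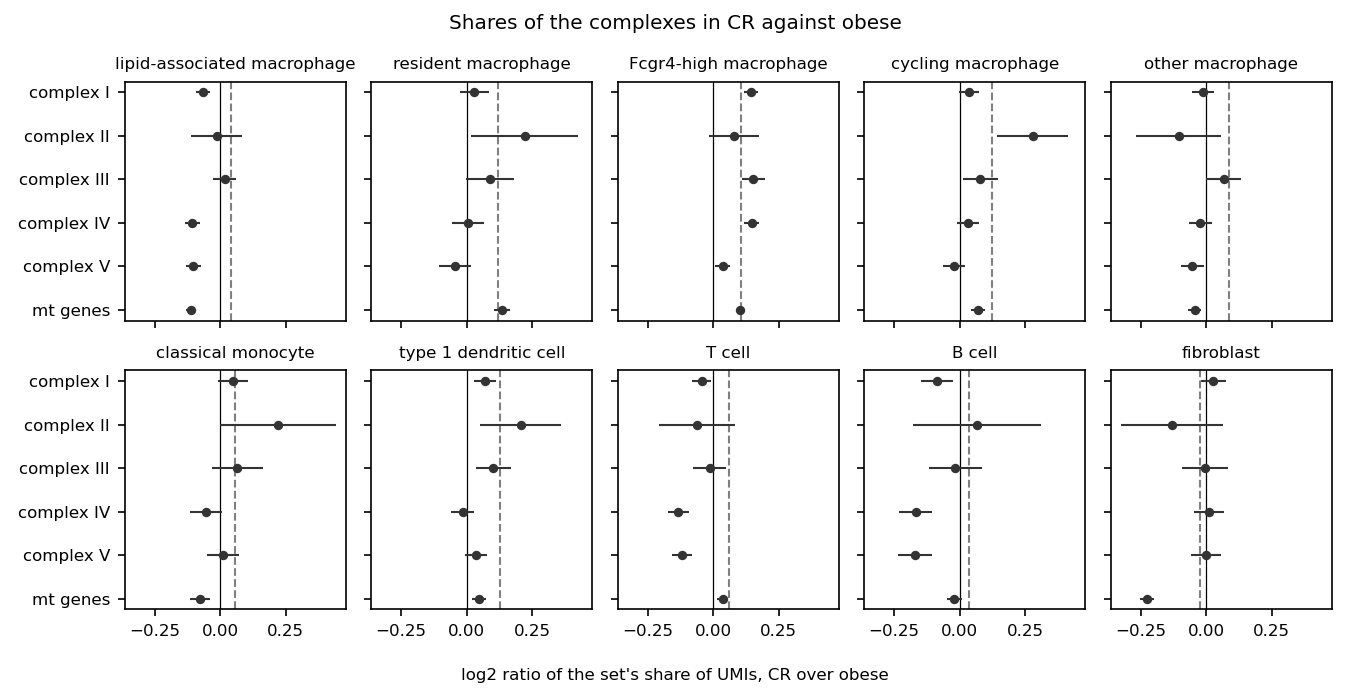
Log2 ratio, CR over obese, of the share of UMIs of each complex and of the mt- genes in the 10 compared gates other than erythroid; points are ratios, bars are exact 95% intervals for counting error, the solid line marks 0 and the dashed line the median log2 ratio of all measured genes in that gate. Complexes I, IV and V lie below 0 in the lipid-associated macrophage, T cell and B cell gates, and complexes I, III and IV lie between 0.14 and 0.15 in the Fcgr4-high gate.

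Set against all measured genes, the members as a group stood slightly lower in CR. Their median log2 ratio was below that of all genes in 8 of the 10 gates, the exceptions being the Fcgr4-high gate (0.13 against 0.10) and fibroblasts (0.01 against -0.02). The gap was widest in B cells (-0.16) and T cells (-0.13). The genes of the cytoplasmic ribosome, given for scale, were lower still, with 68 of 81 below 0 and a median of -0.19 in the lipid-associated gate and 62 of 81 and -0.13 in T cells. The mitochondrial ribosome went with the members in T cells (median -0.12, 29 of 44 below 0) and B cells (-0.15, 28 of 37 below 0), and was near 0 in the macrophage gates, between -0.02 and 0.03.

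Few single members lay past 1.5-fold. Over the 10 gates, 5 values were higher and 6 lower in CR, and in no gate did the count exceed 2 in a direction, where between 4.94% and 16.2% of all measured genes were higher and between 0.866% and 6.21% were lower. In the lipid-associated gate the one member past the fold was Sdhc, lower, where 0.866% of all genes were lower, and none of 75 was higher, where 5.2% were. In the Fcgr4-high gate (8.23% higher and 6.2% lower), the type 1 dendritic cell gate (6.52% and 0.956%), T cells (8.23% and 4.24%) and fibroblasts (4.94% and 5.19%) no member was past the fold. Resident macrophages had 1 (9.8% of all genes higher, 2.78% lower), the complex I subunit Ndufs4, at 91.9 and 142 CPM (0.60 [0.17, 1.06]). Cycling macrophages had 1 (16.2% and 6.21%), Ndufs1 of complex I, at 29.4 and 63.1 CPM (0.98 [0.55, 1.63]). Ndufs1 reached 50 CPM only in CR, so its direction was set by the rule for measured genes.

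The other values past the fold lay in 3 gates. In other macrophages (8.57% and 2.21%) Sdhc was lower. In classical monocytes (7.97% higher and 3.8% lower) Sdha went from 72.3 to 131 CPM (0.81 [0.34, 1.36]) and Ndufa9, a complex I subunit, from 82.3 to 141 CPM (0.74 [0.28, 1.26]), while Sdhaf1 went from 69.2 to 32.7 CPM (-0.98 [-2.05, -0.24]) and Cox6a2 from 102 to 22.7 CPM (-1.96 [-3.34, -1.21]). In B cells (10.1% and 4.68%) Ndufb6 of complex I went from 70.8 to 118 CPM (0.69 [0.22, 1.26]), Ndufa10 of complex I from 103 to 59.6 CPM (-0.74 [-1.38, -0.23]) and Sdhc from 60.5 to 35.7 CPM (-0.69 [-1.53, -0.02]). Sdhc in other macrophages and B cells, and Sdhaf1 and Cox6a2 in classical monocytes, reached 50 CPM only in obese. Their direction was thus set by the rule for measured genes, which also applied to the shares of all genes. Ratios of genes in the erythroid gate were taken over all UMIs, haemoglobin included. The larger share of haemoglobin genes and Alas2 in CR (83.6% against 72.5%) lowers the levels of the other genes by construction. There 47 of 51 members were past the fold lower, where 68.7% of all measured genes were, and none higher, where 5.49% were. The median of all measured genes was -0.92, so these counts do not show a loss particular to the members.

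Smaller differences recurred in several gates for a few genes, in both directions within a complex, and the genes given here were picked after their values were seen. The erythroid gate, where 51 of 51 measured members were below 0, is left out of these counts. Complex II held genes of both directions. Sdha (chr13:74322254-74350280), which oxidises succinate, was higher in CR in all 10 gates where it was measured, with a median of 0.34. It went from 99.7 to 133 CPM in lipid-associated macrophages (0.40 [0.20, 0.63]), from 113 to 146 CPM in Fcgr4-high macrophages (0.35 [0.16, 0.58]) and from 113 to 144 CPM in T cells (0.33 [0.06, 0.62]). Sdhc (chr1:171127165-171150603), one of the 2 membrane anchors, was lower in 9 of 10 gates, with a median of -0.26. Its values were 115 and 71.7 CPM in lipid-associated macrophages (-0.64 [-0.96, -0.41]), 86.1 and 48.5 CPM in other macrophages (-0.77 [-1.36, -0.33]) and 65.1 and 42.4 CPM in T cells (-0.56 [-1.10, -0.15]). Only the type 1 dendritic cell gate had it higher, at 48.3 and 57.7 CPM, with an interval that includes 0. Sdhc reached 50 CPM only in obese in other macrophages, T cells and B cells, and only in CR in type 1 dendritic cells. Its direction in those gates was thus set by the rule for measured genes, though not in lipid-associated macrophages. The 2 other subunits, Sdhb and Sdhd, were higher in 7 of 10 and 3 of 10 gates. Under TMM factors, with the same rule, Sdha was still higher in 9 of 10 gates and Sdhc lower in 9 of 9.

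Among ATP synthase subunits, Atp5g2 (chr15:102662864-102672352), Atp5h (chr11:115415689-115419962) and Atp5e (chr2:174461072-174464105) were lower in CR in 10 of 10 gates, with medians of -0.27, -0.21 and -0.15. Under TMM factors Atp5g2 and Atp5e were lower in 9 of the 10 and Atp5h in all 10. Atp5g2 went from 482 to 365 CPM in lipid-associated macrophages (-0.40 [-0.53, -0.28]) and from 506 to 388 CPM in T cells (-0.38 [-0.54, -0.23]), and its interval lay below 0 in 8 gates. The Atp5g2 promoter, printed above, holds the palindromic NRF1 motif, but that of Atp5l, which was higher in 8 of 10 gates, holds an NRF1 motif too. A part of the motif in these levels was not tested. The c-ring subunit has 3 genes that give the same mature protein, and the other 2 had medians of -0.04 each, with Atp5g1 lower in 6 of 10 gates and Atp5g3 in 7 of 10, counts that became 7 and 10 under TMM factors. Atp5h, the stalk subunit d, went from 470 to 359 CPM in B cells (-0.38 [-0.63, -0.15]), and Atp5e from 678 to 535 CPM in cycling macrophages (-0.34 [-0.50, -0.18]). Atp5l of the same complex was higher in 8 of 10 gates, but in only 3 of 10 under TMM factors.

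In complex I, Ndufb11 was lower in 10 of 10 gates (median -0.13, with 9 of 10 under TMM factors and intervals below 0 in 2), from 325 to 255 CPM in cycling macrophages (-0.34 [-0.59, -0.12]). Ndufs6 was lower in 9 of 10, also under TMM factors, with a median of -0.20. Ndufa1 was higher in 10 of 10 with a median of 0.13, but in only 5 of 10 under TMM factors. In complex IV, Cox7b was lower in 9 of 10 gates (median -0.22, with 10 of 10 under TMM factors and 6 of 10 after thinning), from 293 to 227 CPM in resident macrophages (-0.36 [-0.71, -0.04]), the exception being the Fcgr4-high gate at 322 and 330 CPM. Ndufb11 and Cox7b both lie on the X chromosome, as does Ndufa1.

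Mt- genes were just as divided, although all are cut from the same long transcripts apart from mt-Nd6. Mt-Nd4l was higher in CR in 9 of 9 gates (median 0.65), from 42.4 to 81.7 CPM in lipid-associated macrophages and from 54.6 to 102 CPM in resident macrophages, and mt-Nd5 in 10 of 10 (median 0.29), from 111 to 180 CPM in cycling macrophages (0.68 [0.40, 1.00]). Under TMM factors these counts were 8 of 8 and 8 of 10. In the lipid-associated, cycling, classical monocyte, T cell and B cell gates mt-Nd4l reached 50 CPM only in CR (32.2 to 42.4 CPM in obese). Its direction in those gates was thus set by the rule for measured genes. Mt-Nd2 was lower in 8 of 10 (median -0.24), from 521 to 406 CPM in lipid-associated macrophages, and mt-Nd4, of which mt-Nd4l is the upstream neighbour, was lower in 8 of 10 (median -0.14). Both were lower in 10 of 10 under TMM factors, but without the filter on mitochondrial UMIs mt-Nd2 was lower in 6 of 10 and mt-Nd4 in 4 of 10. Mt-Atp6 was higher in 8 of 10 gates, though in 1 of 10 under TMM factors. Mt-Co3 was lower in 7 of 10, in 10 of 10 under TMM factors and in 4 of 10 without the filter.

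**Figure D3:**
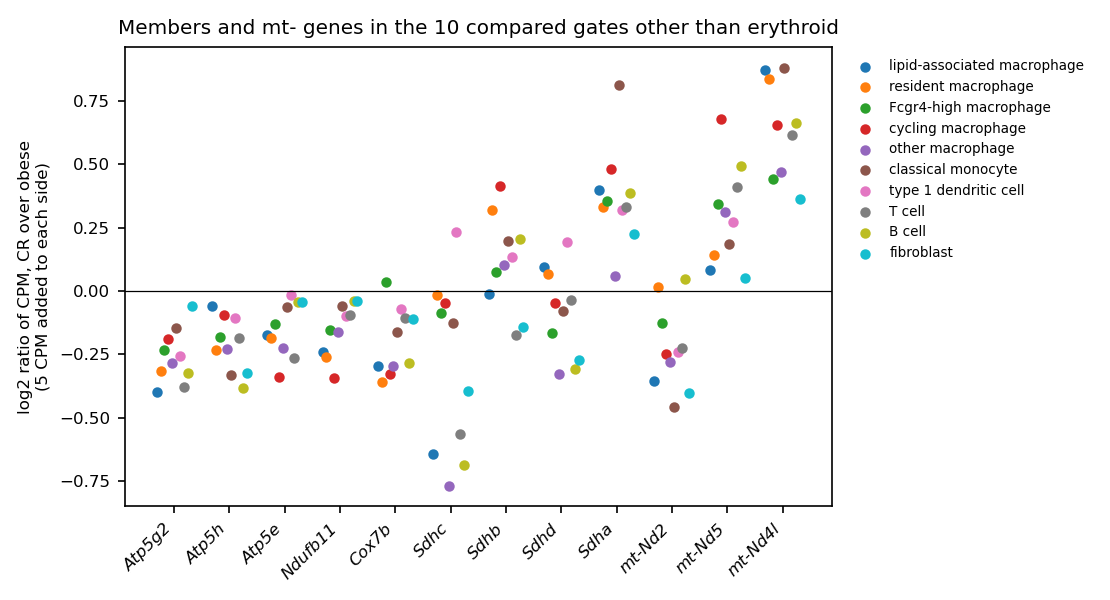
Log2 ratio of CPM, CR over obese (5 CPM added to each side), of 9 nuclear members and 3 mt- genes in the 10 compared gates other than erythroid; each point is 1 gate, coloured by gate, and is drawn only where the gene was measured. Atp5g2, Atp5h, Atp5e and Ndufb11 lie below 0 in each gate drawn, and Sdha, mt-Nd5 and mt-Nd4l lie above 0. In some gates mt-Nd4l and Sdhc reached 50 CPM in only 1 library, which sets their direction there.

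Genes around the respiratory chain were counted for context. Of the TCA cycle list of 13 genes, between 6 and 10 were measured in a gate other than erythroid, and the medians ran from -0.17 in B cells to 0.33 in resident macrophages. In the latter 2 of 8 were past 1.5-fold higher, where 9.8% of all genes were. In classical monocytes 2 of 10 were, where 7.97% of all genes were, with the largest ratio of the list at 1.34. Assembly factors had medians from -0.15 in fibroblasts to 0.32 in the Fcgr4-high gate, where 2 of 8 were past the fold against 8.23% of all genes. In classical monocytes 2 of 8 were past it too, against 7.97% of all genes, with a median of 0.07. Slc25a5, the ATP and ADP carrier that exchanges the product of complex V, went from 944 to 1400 CPM in the Fcgr4-high gate and from 993 to 1667 CPM in the cycling gate (0.57 and 0.75). It belongs to a list of 9 other subunits and partners, whose largest ratio in any gate was 1.75, in fibroblasts. Ucp2, an uncoupling protein homologue of the inner membrane, was lower in CR in 10 of 10 gates, also under TMM factors, from 566 to 310 CPM in T cells (-0.86), from 449 to 258 CPM in B cells (-0.79) and from 1275 to 809 CPM in type 1 dendritic cells (-0.65). Of the regulators, Nrf1, Gabpa, Esrra and Tfam were too low to be measured in the macrophage gates.

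Several complex IV subunits have a second gene used in particular tissues, and these isoforms were rare but not spread evenly. Cox6a2, the heart and muscle form of subunit VIa, had 344 UMIs in obese and 40 in CR, and 133 and 9 of these lay in the classical monocyte gate. Within that gate, 11 of 203 obese cells carried at least 3 UMIs of Siglech, a marker of plasmacytoid dendritic cells, and held 119 of the 133 UMIs (1893 CPM [1568, 2265], against 11.3 CPM [6.19, 19.0] in the other 192 cells). In CR, 2 such cells held all 9 UMIs (780 CPM [357, 1480]), and the other 56 cells held 0. Such cells were thus 11 of 203 in obese and 2 of 58 in CR, and the CR level rests on 9 UMIs from 2 cells. The parts of cell number and of level per cell in the lower Cox6a2 of the CR gate were not tested.

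Cox6b2, the testis form of subunit VIb, was, among leukocyte gates of at least 16 cells, highest in the type 2 dendritic cell gate, at 50.4 CPM in the obese library and at 54.0 CPM in CR, where 26.0% and 30.3% of cells carried a UMI of it. For comparison, 2.70% of obese and 0.831% of CR T cells did, with median depths of 8170 and 8596 UMIs in the dendritic gate and 3459 and 2712 in T cells, and 9.29% of obese type 1 dendritic cells did at a median of 10526 UMIs. Erythroid cells had 161 CPM [122, 208] in obese and 204 CPM [126, 312] in CR when haemoglobin UMIs were left out of the total, and Cox6b2 gave 19.3% and 29.6% of the Cox6b1 and Cox6b2 UMIs there.

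Ndufa4l2 and Cox4i2, isoforms known from hypoxia and from vascular cells, marked the pericyte gate. In the 16 CR pericytes Ndufa4l2 reached 1114 CPM [878, 1395] and Cox4i2 279 CPM [168, 435], so that Ndufa4l2 made up 79.2% of the UMIs of the pair with Ndufa4 and Cox4i2 21.6% of the pair with Cox4i1. In the CR endothelial gate Ndufa4l2 stood at 154 CPM, and it followed the pericyte markers: 82 cells with none of these markers had 8.21 CPM, 44 cells with 1 marker 95.4 CPM, and 47 cells with at least 2 markers 389 CPM. Cox4i2 went 5.47, 15.1 and 155 CPM over the same cells. No obese cell fell in the pericyte gate, but 4 obese barcodes that met several gates and carried at least 2 pericyte markers held 52 UMIs of Ndufa4l2. Fibroblasts had a level of their own, at 91.0 CPM in the obese library and at 65.1 CPM in CR, with 65.2 and 56.3 CPM in fibroblasts without a pericyte marker.

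Cox8b, the muscle and brown fat form of subunit VIII, had 0 UMIs in the obese library and 33 in CR, of which 27 lay in the fibroblast gate (14.8 CPM [9.73, 21.5], in 15 of 297 cells). The 98 obese fibroblasts had 0, where 3 UMIs would be 5.15 CPM and the exact interval reaches 6.33 CPM. Cox7a1 stayed low everywhere, at 6.99 CPM in the obese library and at 5.45 CPM in CR over all cells.

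**Figure D4:**
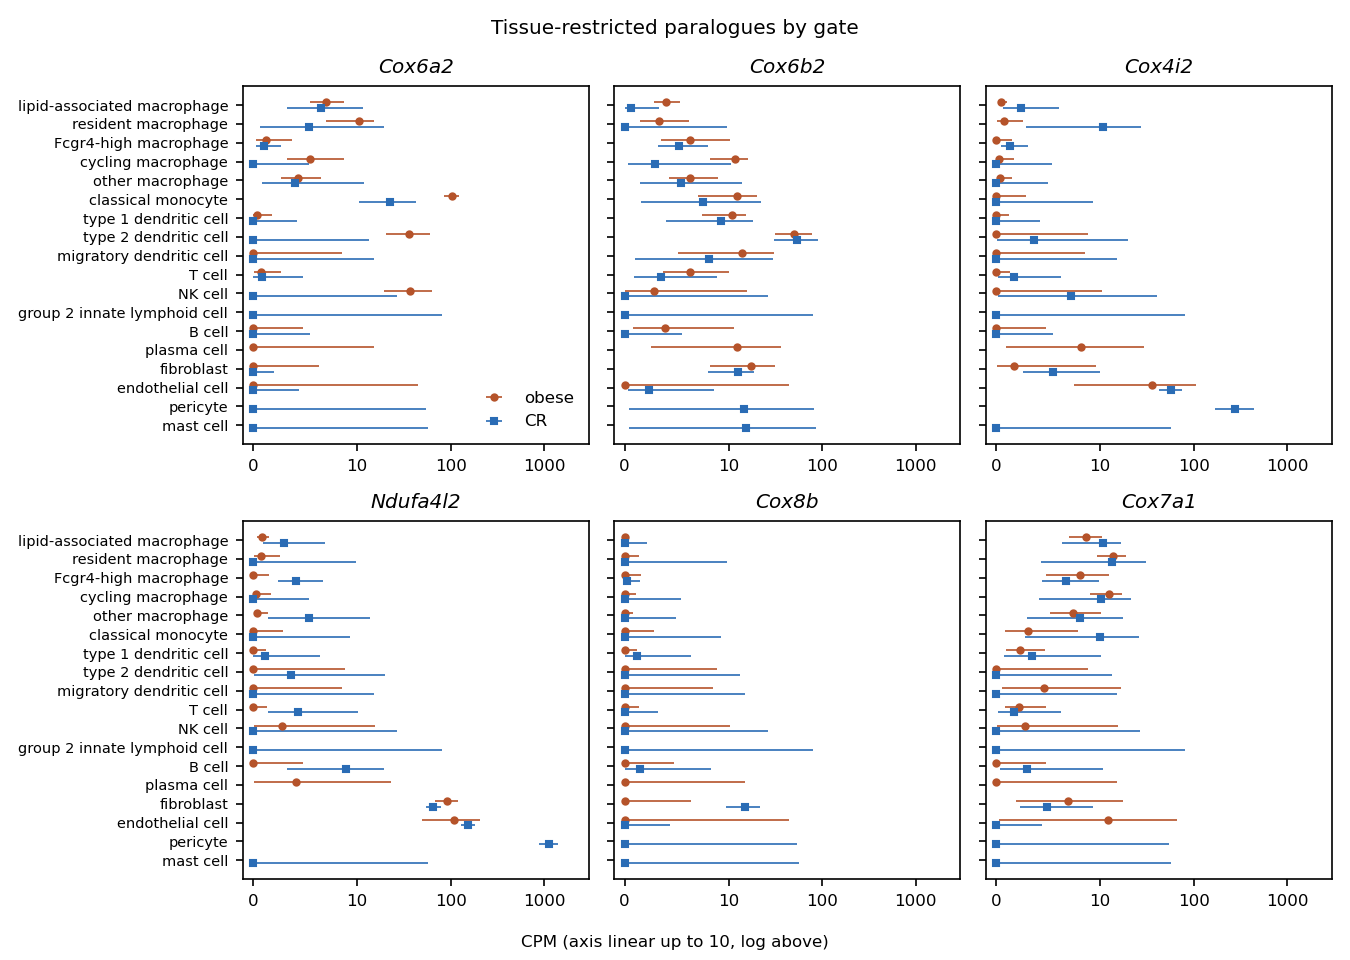
CPM of 6 isoform genes of complexes I and IV by gate (axis linear up to 10 CPM and log above); circles are obese, squares are CR, bars are exact Poisson 95% intervals, and gates with at least 16 cells in a library are drawn. Cox6a2 peaks in the obese classical monocyte gate (102 CPM), Cox6b2, of all UMIs with haemoglobin included, in type 2 dendritic cells (50.4 and 54.0 CPM), Ndufa4l2 and Cox4i2 in pericytes (1114 and 279 CPM) and Cox8b in CR fibroblasts (14.8 CPM). Of the 133 Cox6a2 UMIs in the obese classical monocyte gate, 119 lay in 11 cells with at least 3 Siglech UMIs.

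The filter on mitochondrial UMIs bears on these genes directly, because it is set on the mt- share. It removed 463 of 5795 obese barcodes (7.99%) and 554 of 3562 CR barcodes (15.6%). The loss was uneven between libraries in some gates, with 14.4% of obese and 44.6% of CR lipid-associated macrophages and 5.90% and 48.0% of resident macrophages over the limit, against 2.78% and 6.68% of Fcgr4-high macrophages. When the mt- UMIs were left out of the total, the barcodes over the limit had less nuclear OXPHOS RNA than kept cells in most gates. In lipid-associated macrophages the share was 1.81% against 2.58% in obese (-0.51 [-0.54, -0.49]) and 1.45% against 2.44% in CR (-0.76 [-0.79, -0.72]). In CR fibroblasts it was 1.30% against 2.29% (-0.81 [-0.87, -0.76]).

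That pattern was not shared by all gates. In obese T cells (-0.00 [-0.06, 0.05]) and B cells (0.01 [-0.07, 0.09]) the nuclear share was the same on both sides of the limit within counting error. In obese resident macrophages it was higher over the limit (0.08 [0.02, 0.14]), as it was in obese Fcgr4-high macrophages (0.19 [0.11, 0.27], 11 barcodes), whereas in CR both gates had it lower (-0.38 and -0.29). Barcodes over the limit had fewer UMIs in the macrophage gates, with medians of 4412 against 9267 in obese lipid-associated macrophages and 3633 against 8670 in CR, and about as many as kept cells in obese T cells, at 3551 against 3459. The part of RNA quality in these shares was not tested.

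**Figure D5:**
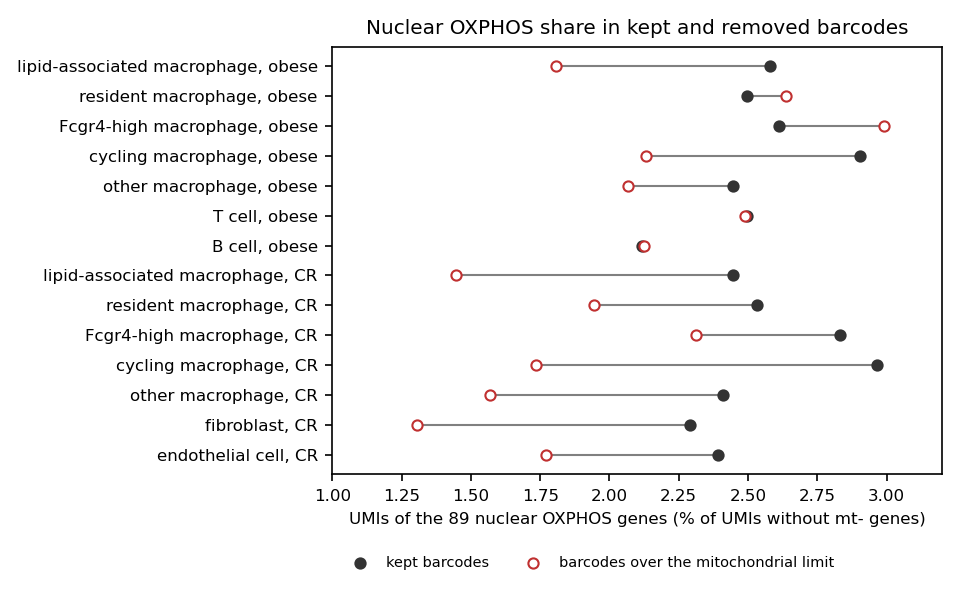
Share of the 89 nuclear OXPHOS genes among UMIs without mt- genes, in percent, in kept barcodes (filled) and in barcodes over the mitochondrial limit (open), by gate and library; each point pools the barcodes of a gate, and a line joins the pair. The open point lies left of the filled one in 11 of 14 rows, and the lowest share is that of CR fibroblasts over the limit (1.30%, against 2.29% in kept cells).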

How the data were processed

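CD45+ cells of 1 obese and 1 CR library were profiled with 10x 3' chemistry after live sorting of Liberase-digested VAT from saline-perfused mice. The authors deposited UMI counts per gene and barcode, made with Cell Ranger 2.2 per the study's methods, and the submitters' processing notes list Cell Ranger, Seurat and mm10. Cells needed 200 genes, and mitochondrial share and log10 UMIs at most 3 scaled median absolute deviations above the median. A gate needed 3 markers (5 for the lipid-associated list), and a lineage a 1.5-fold higher list share. The erythroid gate needed 2% of UMIs from haemoglobin genes and Alas2. These rules were set after the data were seen. Barcodes meeting several gates (344 and 279) were left out and no doublet caller was run. The T cell receptor constant genes were not used here. Levels are counts summed per gate as CPM with exact Poisson intervals. Ratios carry exact conditional binomial intervals, which cover counting error only, since amplification and cell capture add spread that 1 library per group cannot show. Shares carry exact Clopper-Pearson intervals.

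Named were the highest and lowest members of each complex, paralogue families, members past 1.5-fold, those differing most between gates, and the mt- genes. A few genes of the other lists were named as well, and these do not include all of the largest ratios there. The members, lists and this rule were chosen with earlier results of these data known. Counts of near-identical copies, pseudogenes and overlapping genes are uncertain. Gene positions are GENCODE annotation of GRCm38, the sequence build of mm10. Median depth per kept cell was 6738 UMIs in obese and 4802 in CR. Python 3.11.15, numpy 2.4.6, scipy 1.17.1, pandas 2.3.3 and matplotlib 3.10.9 were used, and scripts were tested on simulated data. In all, 11 alternative settings were tried.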

Additional observations from a re-analysis of the deposited data

Results flagged for a closer look

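Counting intervals of the nuclear OXPHOS share lay on opposite sides of 0 in different gates. The log2 ratio of CR over obese was 0.12 in Fcgr4-high macrophages, 0.028 in cycling macrophages and 0.042 in type 1 dendritic cells, against -0.075 in lipid-associated macrophages, -0.085 in T cells and -0.12 in B cells. The share of mt- genes split as well. Its ratio was 0.13 in resident macrophages, 0.10 in Fcgr4-high macrophages, 0.070 in cycling macrophages, 0.047 in type 1 dendritic cells and 0.037 in T cells, against -0.11 in lipid-associated macrophages, -0.044 in other macrophages, -0.078 in classical monocytes and -0.23 in fibroblasts. These gates come from 1 obese and 1 CR library, and the difference between gates was not tested.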

How the results depend on the processing

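No paired analysis was possible because each group is 1 library, and for the same reason none could be left out. Of 88 nuclear gate ratios under the alternatives, 47 stayed within their counting interval, 36 moved and 5 changed the sign of a ratio whose interval had left out 0. Of 88 mt- ratios, 36 stayed, 33 moved and 19 changed sign in that sense. The cause was not tested beyond what each setting does by construction.

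Gates with a higher nuclear share in CR numbered 6, against 2 without the filter, 3 with fixed maxima of 10% mitochondrial and 20000 UMIs, 2 with totals without mitochondrial, ribosomal and haemoglobin genes and 2 with TMM factors. For the mt- share they numbered 5, against 8 without the filter and 1 with TMM factors. Members past 1.5-fold higher numbered 5, against 3 with at least 4 markers, 9 as means of per-cell CPM, 17 after thinning to 1500 UMIs and 22 with no minimum level. Members past it lower numbered 6, against 19 with at least 2 markers, 11 with TMM factors, 31 after thinning and 15 with no minimum.

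The nuclear ratio changed sign in cycling macrophages (-0.014 without the filter, -0.19 with TMM factors) and type 1 dendritic cells (-0.024 with the reduced totals, -0.17 with TMM factors, -0.015 after thinning). For the mt- share, dropping the filter gave 0.98 in lipid-associated macrophages, 0.72 in other macrophages, 0.040 in classical monocytes, -0.044 in T cells and 0.24 in fibroblasts. Fixed maxima gave 0.090 in lipid-associated macrophages, 0.089 in other macrophages and -0.023 in T cells. TMM factors gave -0.083 in resident macrophages, -0.15 in cycling macrophages, -0.17 in type 1 dendritic cells and -0.10 in T cells. At least 2 markers gave 0.094 in other macrophages and 0.20 in classical monocytes, and the reduced totals gave -0.020 in type 1 dendritic cells. Per-cell means gave 0.0062 in classical monocytes and -0.0076 in T cells, and thinning gave 0.030 and -0.0068. The members' median stayed below that of all genes in lipid-associated, resident and other macrophages, type 1 dendritic cells, T cells and B cells under all 11 alternatives.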
